A study of Mus musculus with 4 samples.

Results

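Rhd, Ermap, Kel, Aqp1, Slc4a1, Epb42, Ank1 and Sptb encode proteins of the red cell membrane, and 15 probe sets on the array were annotated to exactly 1 of these 8 genes, out of 45037 probe sets and 18193 genes. Total RNA of 4 mouse samples from a series titled for C57BL6 mice was hybridised to 1 Affymetrix array each. The mixed lineage leukemia developed from blood stem and precursor cells carrying 2 introduced genes, AF4-MLL and MLL-AF4, the reciprocal fusions of the histone methyltransferase MLL and the elongation factor AF4. The proB ALL (acute lymphoblastic leukemia) and the B/T BAL (B/T biphenotypic acute leukemia) developed from such cells with AF4-MLL alone. The control was normal bone marrow. Leukemic marrow was taken from moribund mice after several months and was typed by flow cytometry but not sorted, so resident marrow cells were not removed. The promoter driving the fusions, the age of the mice and the number of mice behind a sample are not given here. Each of the 3 leukemias and the 1 normal marrow had a single array, so a difference between 2 arrays has no replicate check.

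The red cell membrane is held to a spectrin skeleton that lets the cell deform. The anion exchanger band 3 (Slc4a1) is the main anchor: ankyrin (Ank1) ties it to beta-spectrin (Sptb), and protein 4.2 (Epb42) stabilises that link. Several membrane proteins carry blood group antigens, among them the Rh protein (Rhd), the metalloprotease Kell (Kel), the immunoglobulin-family protein Ermap and the water channel Aqp1. Red cell precursors in the marrow make these proteins as they mature.

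The labels were set against marker genes on the same arrays, with the median of all signals, 189, as the floor under which a signal was not read as a level. On the mixed lineage array the 6 neutrophil markers were all above the floor and none was 2-fold lower, and 2 of 3 monocyte markers exceeded normal marrow by at least 2-fold. At least 2-fold lower there were 2 of 4 B-cell, 2 of 5 T-cell and 1 of 4 NK-cell markers. Of these lymphoid markers 0 were at least 2-fold higher on that array. On the B/T BAL array 5 of 5 T-cell markers were at least 2-fold higher and 4 of 4 tested B-cell markers at least 2-fold lower, which goes against the B part of that label. On the array labelled proB ALL 4 of 4 B-cell markers were at least 2-fold lower, while 4 of 4 NK-cell markers and 3 of 5 T-cell markers were at least 2-fold higher, which goes against that label. Thy1 was at 28959 there against 995 in normal marrow, and Cd3d at 12582 against 1002. Cd3e (32.3 against 372) and Ptcra (114 against 123) were not higher. Of the NK-cell markers, Klrk1 was at 19005 against 481 and Eomes at 15148 against 641. Both names are kept below as the labels of those arrays. Between 46.3% and 57.4% of probe sets lay above the floor on an array, with the mixed lineage array highest. The control probe sets of Actb, which report on RNA integrity, had a ratio of 3′ over 5′ signal of 1.87 in normal marrow and 2.47 to 4.72 in the leukemias. Those of Gapdh had 0.94 in normal marrow and 1.14 to 1.28 in the leukemias. The part of these ratios in the results was not tested.

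All 8 genes were lower on each leukemia array than on the normal array. The representative probe set of every gene was at least 10-fold lower on each of the 3 leukemia arrays, which held for 0.621% of the 14012 tested genes; with the mean over probe sets it held for 7, as Sptb was 9.16-fold to 9.51-fold lower. At least 2-fold lower were 13% of tested genes for mixed lineage leukemia, 14.7% for proB ALL, 15.1% for B/T BAL and 4.24% on all 3 arrays. The normal array exceeded all 3 leukemias in 19.2% of tested genes, and in 8 of 8 of these. The median log2 difference between the leukemia mean and normal marrow was -6.25 over the 8 genes and 0.02 over all tested genes. On single arrays the median of the 8 genes was -6.18 (mixed lineage), -6.80 (proB ALL) and -5.55 (B/T BAL). Only 4, 2 and 6 of the 8 genes lay above the floor on these arrays, so these medians and their order rest partly on dim signals. With dim signals raised to the floor, the median for the leukemia mean was -5.78. In bulk RNA, fewer red cell precursors and less of each RNA per cell cannot be told apart. A fold is given as "at least" where the leukemia signal lay at or below the floor.

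**Figure D1:**
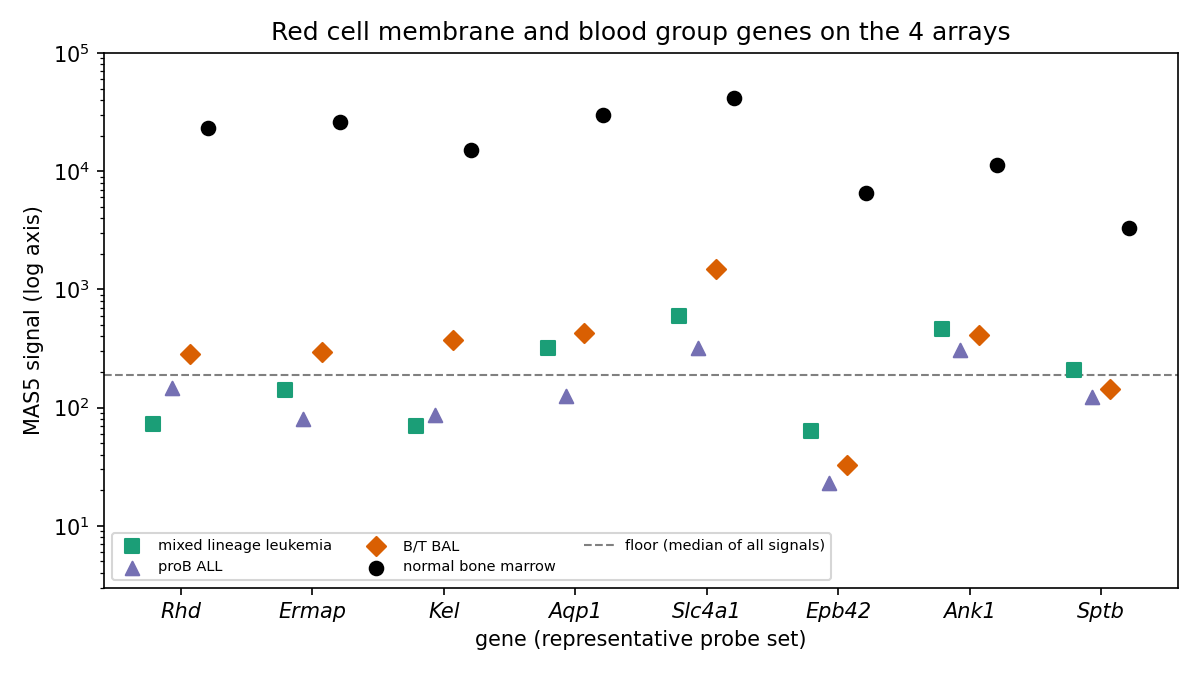
MAS5 signal (log axis) of the representative probe set of each of the 8 genes on the 4 arrays, 1 point per array, with the floor of 189 as a dashed line. The normal marrow points lie from 3322 (Sptb) to 41904 (Slc4a1), and the highest leukemia point is Slc4a1 in B/T BAL at 1496.

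Among the blood group proteins, Rhd gave a signal of 22991 in normal marrow, against 73.1, 147 and 284 in the mixed lineage, proB ALL and B/T BAL leukemias. Only the B/T BAL value lay above the floor, 80.9-fold below normal marrow, and the other leukemias were at least 122-fold lower. Ermap, a red cell adhesion and receptor-like protein of the butyrophilin family, gave 25953 in normal marrow, against 141, 80.8 and 296 in the leukemias in the same order. Its B/T BAL signal was 87.6-fold lower, and the other leukemias were at least 138-fold lower. Kel, a zinc endopeptidase, gave 14966 in normal marrow, against 70.0, 86.7 and 372 in the leukemias. Its B/T BAL signal was 40.2-fold lower, with the other leukemias at least 79.4-fold lower. In each of these 3 genes B/T BAL was the 1 leukemia above the floor, at between 1.14% (Ermap) and 2.49% (Kel) of the normal signal. Each was measured by 1 probe set.

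The start regions of these 3 genes are shown because each holds a GATA motif, the binding motif of the GATA factor family, close to the start. The stretches are the 150 bases just before the start site used for each gene in a RefSeq table of start regions (GRCm38.p6), 5′ to 3′ on the gene's strand, with AGATAA and its variant TGATAA, on either strand, in capitals. They lie at chr4:134864386-134864535 on the plus strand for Rhd, chr4:119189996-119190145 on the minus strand for Ermap and chr6:41704326-41704475 on the minus strand for Kel. The Aqp1 stretch at chr6:55336149-55336298 on the plus strand is shown beside them as one without either spelling.
Rhd: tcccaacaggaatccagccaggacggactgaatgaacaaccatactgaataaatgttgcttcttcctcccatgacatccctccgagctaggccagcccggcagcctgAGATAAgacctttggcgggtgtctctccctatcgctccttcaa
Ermap: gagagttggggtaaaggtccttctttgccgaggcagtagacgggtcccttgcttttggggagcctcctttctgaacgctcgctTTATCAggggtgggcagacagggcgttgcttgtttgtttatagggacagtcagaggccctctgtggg
Kel: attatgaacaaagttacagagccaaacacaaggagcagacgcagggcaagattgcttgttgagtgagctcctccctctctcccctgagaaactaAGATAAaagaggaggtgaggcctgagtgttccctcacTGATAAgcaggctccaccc
Aqp1: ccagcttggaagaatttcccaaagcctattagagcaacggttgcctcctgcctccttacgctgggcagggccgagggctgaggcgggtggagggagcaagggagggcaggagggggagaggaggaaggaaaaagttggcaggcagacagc

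In the gene annotation of the same build Ermap begins 18 bases and Kel 9 bases before that site, so the last bases of those stretches lie inside the annotated gene, and distances are counted from the table's site. The Rhd match begins 43 bases before the site, the Ermap match 67 bases, and the Kel matches 56 and 19 bases. Start regions of 6 of the 8 genes were matched by symbol (Rhd, Ermap, Kel, Aqp1, Epb42 and Sptb); those of Slc4a1 and Ank1 were not used here. Over the 250 bases before the start and on both strands, AGATAA occurred in 3 of the 6 (Rhd, Kel and Epb42) and in 9.99% of all 32851 windows of this length. TGATAA, a spelling added after these sequences had been seen, occurred in 2 of the 6 (Ermap and Kel) and in 7.94% of windows. Either spelling occurred in 4 of the 6 and in 16.6% of windows. The CACC-box motif CCNCNCCC, bound by Klf factors, occurred in 2 of the 6 (Aqp1 and Sptb) and in 45.9% of windows. The E-box CAGNTG occurred in 3 of the 6 (Epb42, Aqp1 and Sptb) against 44.8% of windows, and TATAAA in 2 of the 6 (Epb42 and Ermap) against 12.4%. These matches describe letters in a window, and binding was not measured.

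Among the transport proteins, Aqp1 gave a signal of 29770 in normal marrow, against 319, 125 and 431 in the mixed lineage, proB ALL and B/T BAL leukemias. It was 93.4-fold lower in mixed lineage leukemia and 69.1-fold lower in B/T BAL, and at least 158-fold lower in proB ALL, where it lay below the floor. Slc4a1, the chloride-bicarbonate exchanger of red cells, gave 41904 in normal marrow, against 592, 318 and 1496 in the leukemias. All 3 leukemia values lay above the floor, 70.8-fold, 132-fold and 28-fold below normal marrow. The B/T BAL value was the highest of the leukemias, at 3.57% of the normal signal. A second Slc4a1 probe set, marked for cross-hybridisation, gave 25536 in normal marrow, against 476, 206 and 1139, in the same order of arrays. The third was below the floor everywhere, at 3.28 in normal marrow against leukemia values of 159, 1.98 and 16.4, so it gave no fold.

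Among the proteins that join the membrane to spectrin, Epb42 gave a signal of 6575 in normal marrow, against 63.9, 22.8 and 32.8 in the mixed lineage, proB ALL and B/T BAL leukemias. It was the 1 gene of the 8 below the floor in all 3 leukemias, at least 34.9-fold lower in each, and its other probe set had 1190 against 50.3, 2.30 and 18.7. Ank1 gave 11390 in normal marrow, against 464, 305 and 410 in the leukemias. Its leukemia values all lay above the floor and close together, 24.5-fold, 37.4-fold and 27.8-fold lower. Sptb gave 3322 in normal marrow, against 208, 123 and 144 in the leukemias. It was 15.9-fold lower in mixed lineage leukemia and at least 17.6-fold lower in proB ALL and B/T BAL, where the floor allows no larger fold.

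Probe sets of Ank1 and Sptb differed in the size of the difference they showed. A second Ank1 probe set gave 2149 in normal marrow, against 175, 63.2 and 99.9 in the mixed lineage, proB ALL and B/T BAL leukemias, at least 11.4-fold lower in each. The other two Ank1 probe sets were below the floor on all 4 arrays. One of them gave 172 in normal marrow, against 30.4, 92.8 and 80.2 in the leukemias, and the other had 44.5 against 165, 2.56 and 16.5. The second Sptb probe set gave 264 in normal marrow, against 87.5, 82.5 and 248 in the leukemias, so B/T BAL was at 93.9% of the normal signal there. Over the 15 probe sets, 12 were above the floor in normal marrow, and in all 12 the normal array was the highest of the 4. The 2 probe sets on which mixed lineage leukemia was highest, of Slc4a1 and Ank1, were both dim on all arrays, and low signals were in general higher on that array, whose 2nd percentile was 20.4 against 2.88 to 3.97 on the others. The part of that difference in these values was not tested.

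**Figure D2:**
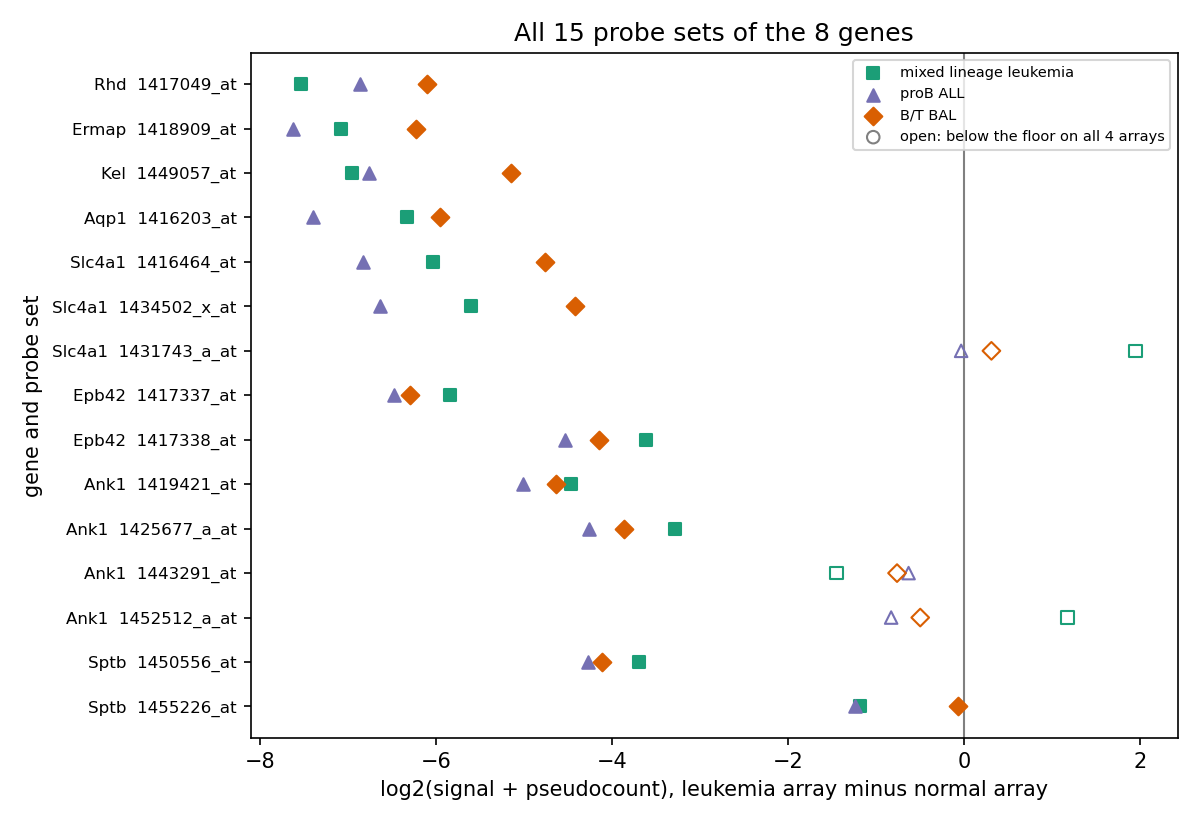
Difference between each leukemia array and the normal array in log2(signal + 51.4) for all 15 probe sets of the 8 genes, 1 symbol per leukemia; open symbols mark the 3 probe sets below the floor on all 4 arrays. The filled symbols lie left of 0, from -7.62 (Ermap, proB ALL) to -0.08 (the second Sptb probe set, B/T BAL).

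The comparison of the 3 leukemias with normal marrow was tested with limma over all 14012 genes. No gene of the 8 passed an adjusted p of 0.05, and none of all tested genes did (0% called). At an unadjusted p under 0.05 all 8 were lower and 0 higher, against 2.63% and 0.314% of tested genes. Ermap had a log2 difference of -6.98 ± 0.85 (SE), with a 95% interval from -8.96 to -4.99 and a limma adjusted p of 0.0702. Rhd (-6.83 ± 0.86) and Aqp1 (-6.56 ± 0.84) had the same adjusted p, which was the smallest of any tested gene and was shared by 17. Kel had -6.29 ± 0.96, Epb42 -6.21 ± 0.92, Slc4a1 -5.87 ± 0.91 and Ank1 -4.70 ± 0.73, with limma adjusted p between 0.115 and 0.118. Epb42 lay below the floor in all 3 leukemias, and its difference was -4.79 with dim signals raised to the floor. Sptb had -4.03 ± 0.83, a 95% interval from -5.95 to -2.10 and a limma adjusted p of 0.283. Among all tested genes these differences ranked between the 5th (Ermap) and the 87th (Sptb) lowest. The spread came from 3 leukemias of different immunophenotype, and the same spread was taken for the single normal array. Leaving out 1 leukemia gave a median log2 difference of the 8 genes of -6.17 without mixed lineage leukemia, -6.06 without proB ALL and -6.64 without B/T BAL. Calls from these fits are not given, as the spread then rests on fewer leukemias. With the mean over probe sets in place of the brightest, the log2 difference was -2.38 for Ank1, -3.56 for Slc4a1 and -2.43 for Sptb.

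**Figure D3:**
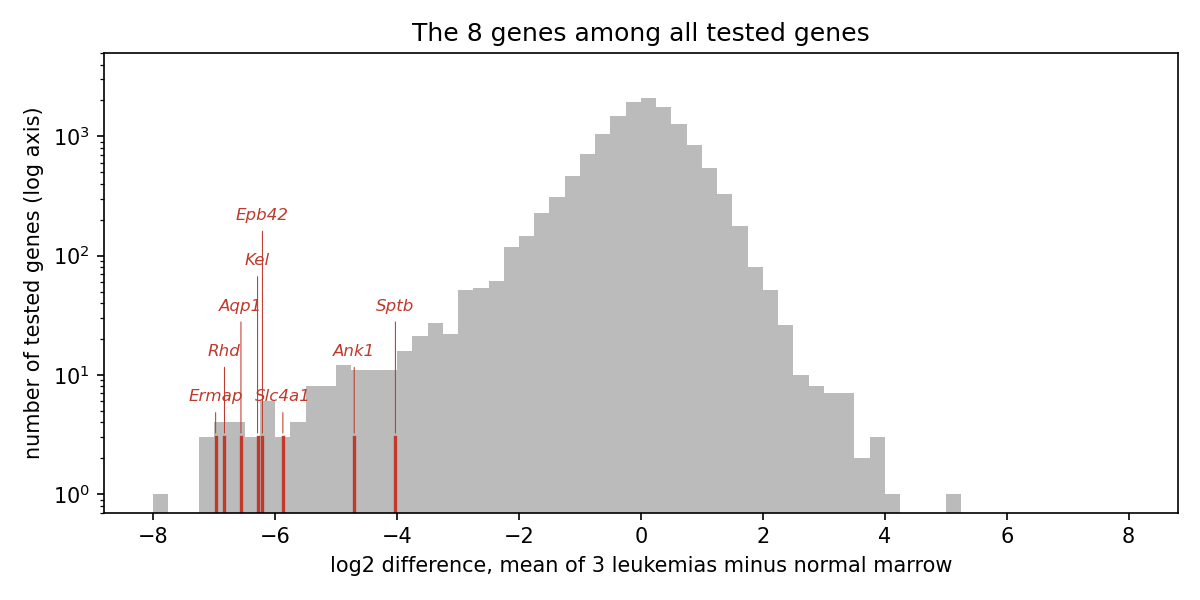
Number of tested genes (log axis) by log2 difference between the mean of the 3 leukemias and normal marrow, in bins of 0.25, with the 8 genes marked as red lines. The 8 genes lie between -6.98 and -4.03, while the median of all 14012 genes is 0.02.

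The signal left differed between the leukemia arrays. Above the floor were 6 of the 8 genes on the B/T BAL array, 4 on the mixed lineage array and 2 (Slc4a1 and Ank1) on the proB ALL array. Of all probe sets 49.0%, 57.4% and 46.3% lay above it on these arrays, in the same order. With dimmer signals set to the floor, B/T BAL was the highest of the 3 leukemias in 5 of 8 genes (Rhd, Ermap, Kel, Aqp1 and Slc4a1), against 34% of tested genes. Mixed lineage leukemia was the highest for Ank1 and Sptb, against 42% of tested genes, and Epb42 had no order. ProB ALL was the lowest for 3 genes (Aqp1, Slc4a1 and Ank1), against 23.8%, and the other five genes had at least 2 leukemias at the floor and so no single lowest. On the same scale the B/T BAL signal exceeded the next leukemia by 2.53-fold for Slc4a1, 1.97-fold for Kel and less for the others. These are comparisons of single arrays without a test.

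The leukemia with both fusions was also tested against the 2 with AF4-MLL alone. With limma, 0 of the 8 genes passed an adjusted p of 0.05 (0% of tested genes) and 0 had an unadjusted p under 0.05, against 17.6% of tested genes. The log2 differences ran from -1.05 for Rhd (95% interval from -3.11 to 1.01) to 0.54 for Epb42 (from -1.33 to 2.42). Both extremes rest on signals below the floor: with dim signals raised to it, Epb42 was at 0, Rhd at -0.24, and the range ran from -0.41 (Kel) to 0.35 (Ank1). The intervals of the 8 genes reached from -3.56 to 2.61, so differences of several-fold in either direction lie within them. The only spread available was that of the 2 AF4-MLL leukemias, with 1 residual degree of freedom. Aqp1, Slc4a1 and Sptb changed sign under at least 1 other processing.

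Most of the measured relatives of these genes were not called lower on every leukemia array, which for the dim ones the floor fixed in advance. Of 28 listed family members, 18 were tested; 3 were at least 2-fold lower on all 3 leukemia arrays (4.24% of all tested genes were), 0 were at least 2-fold higher on all 3, and 15 were neither. Their median log2 difference was 0.11, and 2 of them (Rhag and Aqp9) had an unadjusted limma p under 0.05. Without Rhag, itself a red cell protein, 2 of 17 were lower on all 3 arrays and the median was 0.14. A normal signal under 2 times the floor could not give a 2-fold lower call. This held for Rhbg, Phex, Aqp5, Aqp3, Ank3, Aqp8, Mme, Aqp11, Tgm1, Tgm3 and Btn1a1, which count as neither. Sptbn1, the broadly made beta-spectrin, gave 9030 in normal marrow, against 17594, 21579 and 15482 in the mixed lineage, proB ALL and B/T BAL leukemias. Its values were above normal marrow on all 3 arrays (log2 difference 0.99 ± 0.56, limma unadjusted p = 0.118), whereas those of Sptb were below it. Slc4a2, an anion exchanger of many tissues, gave 1734 in normal marrow, against 1513, 1281 and 3912 in the leukemias. Ank3, another ankyrin, lay below the floor in both normal marrow and proB ALL, and had 300 and 220 in mixed lineage leukemia and B/T BAL. The difference between a gene and its relative was not tested.

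The 3 relatives that were lower everywhere were Rhag, Aqp9 and Tgm2. Rhag, the partner of the Rh protein in the red cell membrane, gave 14238 in normal marrow, against 249, 80.2 and 287 in the leukemias. Aqp9, a channel for water and small solutes, had 3385 against 1123, 132 and 111. Tgm2, a transglutaminase, had 3729 against 713, 1712 and 1380, while Tgm1 and Tgm3 had at most 343 in normal marrow. Of the other water channels, Aqp3, Aqp5 and Aqp8 were above the floor only in mixed lineage leukemia, at 839, 414 and 288, and Aqp11 reached 792 in B/T BAL against 200 in normal marrow. Among relatives of Kel, the endothelin-converting enzymes Ece1 and Ece2 gave 489 and 1166 in normal marrow; Ece1 had 63.6, 1152 and 1248 and Ece2 had 852, 1669 and 1322 in the leukemias. Mme and Phex were above the floor only barely, at most at 276 (Mme) and 203 (Phex). Btn1a1, a butyrophilin related to Ermap, had 335 in normal marrow and lay below the floor in each leukemia. Rhbg, an ammonium transporter of the Rh family, was above the floor only in mixed lineage leukemia, at 544. As given above, low signals were in general higher on the mixed lineage array. The part of that difference in these dim values was not tested.

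**Figure D4:**
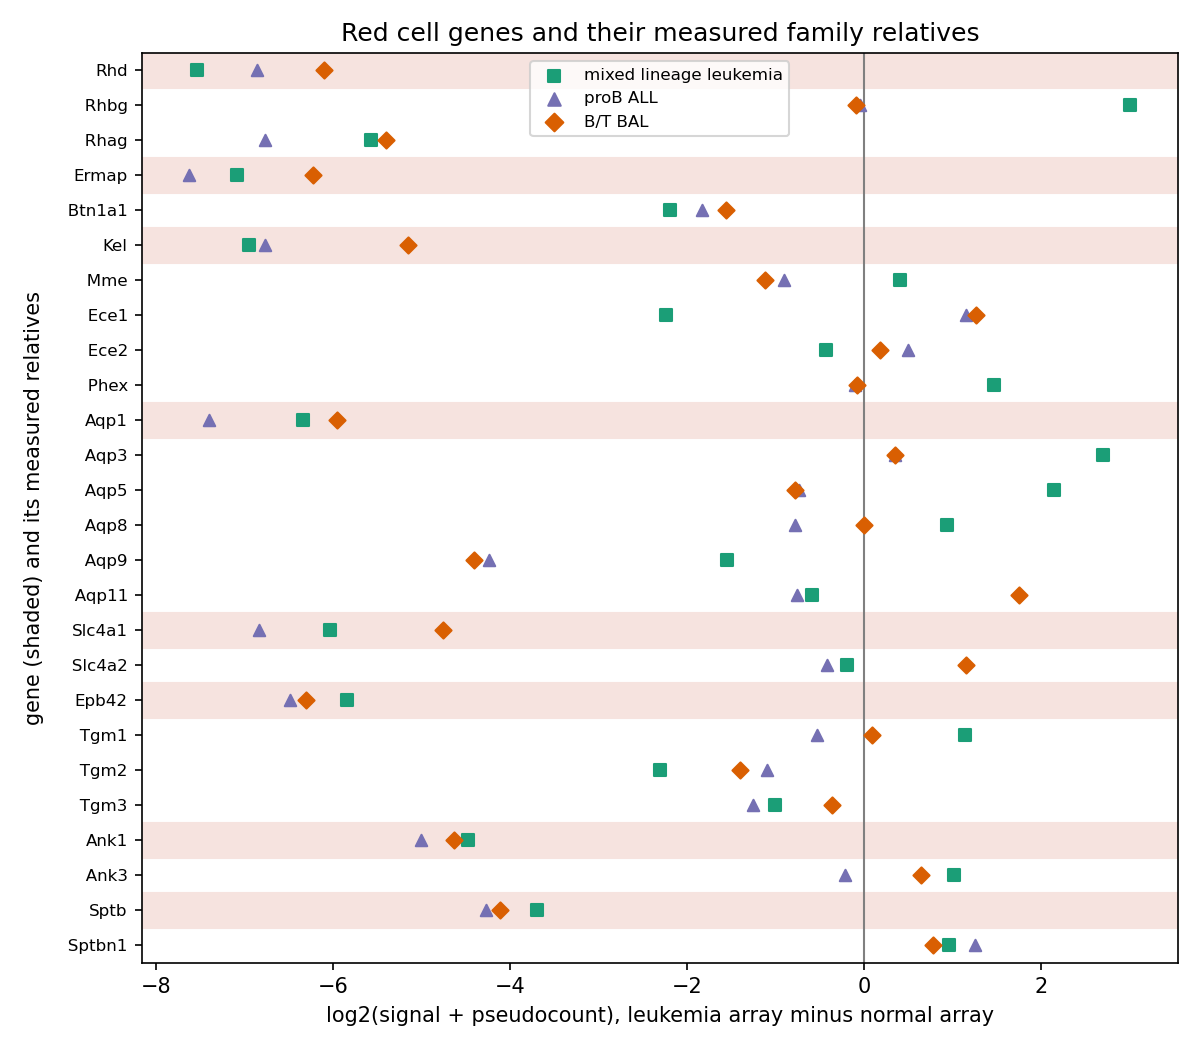
Difference between each leukemia array and the normal array in log2(signal + 51.4) for the 8 genes (shaded rows) and their tested family relatives (unshaded rows below each), 1 symbol per leukemia. The shaded rows lie from -7.62 to -3.70, while Sptbn1 and Slc4a2 have points at or right of -0.42.

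Other genes of the red cell skeleton were mostly within 2-fold on at least 1 array. Of all tested genes 4.24% were at least 2-fold lower on all 3 arrays. Of 13 listed skeleton genes, 11 were measured, with a median log2 difference of -0.78; 2 were at least 2-fold lower on all 3 arrays, and the same 2, Add2 and Tmod1, had an unadjusted limma p under 0.05. Add2, the beta-adducin of red cells and brain that joins spectrin to actin, gave 3844 in normal marrow, against 229, 3.22 and 2.58 in the mixed lineage, proB ALL and B/T BAL leukemias. Tmod1, which caps actin filaments, had 3660 against 903, 262 and 364. Add1, the broadly made adducin, had 10122 against 6607, 7132 and 4327. The membrane scaffold Mpp1 had 16867 against 10314, 5616 and 6035, tropomyosin Tpm1 had 2226 against 455, 1508 and 1151, and the actin-bundling Dmtn had 1179 against 655, 333 and 657.

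Blood group carriers and partners of band 3 were lower in the majority. The list of these genes shares Add2, Rhag, Car2, Aqp3 and Aqp9 with other lists. Of its 26 measured genes, 16 were at least 2-fold lower on all 3 arrays (4.24% of all tested genes were) and 0 at least 2-fold higher on all 3. Their median log2 difference was -2.31, and 12 were lower at an unadjusted limma p under 0.05, against 0 higher. On each single array 1 gene of the list was at least 2-fold higher: Aqp3 in mixed lineage leukemia, Slc2a1 in proB ALL and Sema7a in B/T BAL. Tspo2, a cholesterol-binding protein of red cell precursors, gave 11096 in normal marrow, against 135, 24.1 and 239 in the mixed lineage, proB ALL and B/T BAL leukemias. Icam4, the Landsteiner-Wiener blood group protein, had 9973 against 385, 247 and 138. Car2, a carbonic anhydrase that supplies bicarbonate to band 3, had 43392 against 1237, 2803 and 669. Slc43a1, an amino acid transporter, had 6876 against 69.0, 458 and 1503.

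The genes whose profile over the 4 arrays lay nearest to the mean profile of the 8 were Cldn13, 5430401H09Rik, Sox6, Rhag, Apol8, Fhdc1, Tspo2 and Alas2, at Euclidean distances between 0.41 and 0.83 in centred log2 values. Cldn13, a claudin, gave 17713 in normal marrow, against 181, 154 and 244 in the mixed lineage, proB ALL and B/T BAL leukemias. Sox6, a transcription factor of red cell maturation, had 5239 against 69.8, 43.9 and 136. The single nearest gene was Cdr2 for Rhd, Alas2 for Ermap, Tspo2 for both Aqp1 and Slc4a1, Tspan33 for Epb42, Slc6a20a for Sptb, Bex4 for Ank1 and Apol8 for Kel. Among the 28 pairs of the 8 genes, Ermap and Aqp1 were the closest at 0.55, Sptb and Ank1 were at 0.62, and Rhd and Sptb were the farthest at 2.77. Such distances over 4 arrays follow mostly the gap between normal marrow and the leukemias.

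Marker genes of several marrow cell types were also lower on the leukemia arrays. For comparison, 4.24% of all tested genes were at least 2-fold lower on all 3 arrays. Not all types were: neutrophil markers were so in 0 of 6, monocyte in 0 of 3, B-cell in 2 of 4, T-cell in 0 of 5 and NK-cell in 0 of 4. Red cell precursor markers (7 of 11 tested) were at least 2-fold lower on all 3 arrays in 7 of 7, with summed signals of 168177 in normal marrow and 9692 to 16406 in the leukemias. Car2, given above, was the brightest of them in normal marrow, at 43392. Alas2, the first enzyme of heme synthesis, had 39547 against 263, 183 and 467, and the iron uptake receptor Tfrc had 29956 against 7513, 12104 and 14566. Megakaryocyte markers were lower on all 3 arrays in 4 of 4 (sum 31329 against 1709 to 2206), with Ppbp at 16168 against 351, 244 and 248 and Pf4 at 10077 against 531, 883 and 738. Macrophage markers were lower on all 3 in 3 of 8 (37730 against 5564 to 16434), with Vcam1 at 10584 against 7660, 4344 and 988 and Cd5l at 6667 against 770, 2411 and 363. Endothelial markers, given because endothelium also makes Aqp1, were lower on all 3 in 2 of 5 (2725 against 745 to 1642), with Vwf at 980 against 189, 98.7 and 294 and Pecam1 at 768 against 308, 324 and 978. Their part in the low signals of the 8 genes was not tested.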

How the data were processed

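The deposited table holds linear intensity values, 1 for each probe set and array. The submitters' processing notes name MAS5, whose version and parameters are not given here. The values had a trimmed mean of 1000 on each array (2% off each end). Of 45101 probe sets, 64 controls were left out, and 34945 of the rest carried 1 gene symbol, 932 several and 9160 none in the platform annotation used here; probe sets of the last kinds were left out. Signals were analysed as log2(signal + 51.4), the 25th percentile of all signals, so log2 differences understate the change of dim genes. The brightest probe set represented a gene, and the 14012 genes above the floor of 189 on at least 1 array were tested with limma 3.58.1 in R 4.3.3 (lmFit, eBayes with an intensity trend, Benjamini-Hochberg over all of them). The residual degrees of freedom were 2 for leukemia against normal marrow and 1 for the fusion contrast. Levels were compared between arrays, and between probe sets only to choose the brightest. The code was tested on simulated data.

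The 8 genes and the lists (skeleton, blood group and band 3 partners, family members, transport, cell type markers) were chosen with earlier results of these data known. Named were all 8 genes, all tested family members, up to 6 genes per list by absolute difference and the nearest profiles. For cell types with named markers, the 2 brightest in normal marrow are among those named. Other genes were chosen after their values were seen. Alternatives were quantile normalization, scaling to the 75th percentile, other pseudocounts and filters, raising dim signals to the floor, other probe set choices, robust eBayes and leaving out each leukemia. Precision is limited by the number of arrays. The p-values rest on the spread among 3 leukemias that differ in immunophenotype.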

Additional observations from a re-analysis of the deposited data

How the results depend on the processing

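All 8 log2 differences between leukemia and normal marrow stayed negative in all 104 recomputed values, from -7.35 to -2.38. Many of these values repeat the main ones. Both filter changes, leaving out cross-hybridising probe sets and robust eBayes left all 8 differences as they were. The mean over probe sets did so for genes with 1 probe set. The number of the 8 genes past a limma adjusted p of 0.05 was 0 as reported, 3 with a pseudocount at the 50th percentile and 5 with robust eBayes. Over all tested genes the last 2 settings gave 15 of 14056 and 23 of 14012 lower genes. The cause of these changes was not tested. Calls with 1 leukemia left out are not given, as the spread then rests on fewer leukemias. The count of genes lower by at least 10-fold on every leukemia array was 8 under each alternative run except the mean over probe sets, which gave 7. The pseudocount does not enter these folds, and leaving out a leukemia could not lower the count. In the fusion contrast 75 of 80 values kept their sign, and Epb42 was 0 with signals raised to the floor. The same repeats are among the 80. Aqp1 turned to -0.044 and Sptb to -0.059 under quantile normalization, and with the mean over probe sets Slc4a1 turned to 0.50 and Sptb to -0.017. The fusion contrast could not be tested without one of its leukemias, for lack of residual degrees of freedom. No paired analysis was possible because each group has 1 array. Signals below the floor limit every fold given as "at least".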

Other observations

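Ion and metabolite transporters of red cells, some of them of the mitochondrial membrane, were split. Of 11 listed, 9 were measured, with a median log2 difference of -1.09 between leukemia and normal marrow. Of the 9, 2 were at least 2-fold lower on all 3 leukemia arrays (4.24% of all tested genes were) and 0 at least 2-fold higher. Slc25a37, the mitochondrial iron importer mitoferrin, gave a signal of 33405 in normal marrow, against 1054, 1156 and 2209 in the mixed lineage, proB ALL and B/T BAL leukemias. Abcb10, a mitochondrial transporter of red cell precursors, had 13432 against 2861, 2019 and 633. Slc16a1, a lactate transporter, was at least 2-fold lower on the mixed lineage array alone and gave 19722 in normal marrow, against 1776, 14764 and 11655. Slc12a7, a potassium-chloride cotransporter, gave 528 in normal marrow, against 378, 2298 and 4153, and the calcium pump Atp2b1 had 869 against 2620, 5688 and 769. The nucleoside transporter Slc29a1 had 3585 against 420, 1073 and 4840. These are values of single arrays without a test.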
